A study of Mus musculus with 8 samples.

Results

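Cytotoxic T cells and natural killer (NK) cells were picked out of mouse bone marrow profiled cell by cell in a transplant model of myelofibrosis, the scarring of marrow that can follow a myeloproliferative neoplasm. They were 685 of 22078 cells that passed the quality limits (500 or more genes, 1000 or more UMIs and a mitochondrial part below 10%; a UMI marks 1 captured RNA molecule), or 3.103%. The cells were selected on measured transcripts: a cell was kept if it held at least 2 UMIs of Ccl5 or of Gzma, at least 1 UMI of Nkg7, at least 1 UMI of Cd3d, Cd3e, Cd3g, Klrd1 or Ncr1, and no UMI of Rag1. The 410 cells with a UMI of at least 1 of the 3 Cd3 genes are called Cd3-detected, and the 275 without one are called Cd3-negative. The cells were thus chosen by the counts of these genes, whose values are given as description.

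The marrow came from 4 transplant groups. In the Gli1-/- JAK2V617F group, donor cells lacked Gli1, which encodes a factor of hedgehog signalling, and carried a retrovirus with JAK2V617F, the activated kinase of myeloproliferative neoplasms. In the WT JAK2V617F group, wild type (WT) donor cells carried the same virus. The Gli1-/- JAK2WT and WT JAK2WT groups had Gli1 knockout and wild type donor cells with the control virus for unmutated JAK2. All donors were 8 weeks old, and all recipients were irradiated (10.5 Gy) female B6.SJL mice of 8 to 10 weeks, taken at day 112. The knockout was thus in donor cells only, the recipients were not knockouts, and cells of the recipient can persist in such marrow. The sex of the donors is not given in the labels. Marrow of 3 mice per group was pooled, and magnetic beads removed cells with CD3, B220, TER119, GR1 or CD11b on their surface. Viable lineage-negative cells were then sorted as GFP-positive and GFP-negative fractions. The depletion took out CD3-bearing cells before the sort, so shares of Cd3-detected cells describe what the depletion and sort left. Each group was 1 library, so no difference between groups has a replicate check, and none was tested. Intervals in parentheses are 95% intervals and cover counting error only. They are exact, except those of ratios of shares, which are log-normal approximations.

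Cytotoxic lymphocytes kill infected or transformed cells by releasing granules that hold perforin, which opens the target membrane, and granzymes, proteases that start cell death. CD8 T cells recognise their targets through the T cell receptor, whose signal passes through the CD3 chains. NK cells and other group 1 innate lymphoid cells have no rearranged T cell receptor and use activating receptors such as NKp46 (Ncr1) and inhibitory ones such as the Ly49 family (the Klra genes). In marrow, NK cells arise from lymphoid progenitors, and the interleukin 7 receptor (Il7r) falls as they mature.

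The promoters of 3 genes on which the accounts below turn are shown here: the granzyme gene Gzma, the NK receptor gene Ncr1 and the interleukin receptor gene Il7r. Each line is the 250 bases before a start of the gene in RefSeq (GRCm38.p6), 5′ to 3′ on the strand of the gene. Capitals mark TCACAC or its reverse complement GTGTGA, a core bound by T-box factors such as T-bet and Eomes, and TGTGGT or its reverse complement ACCACA, a core bound by RUNX factors. The T-box core was present in 12.3% of all 32851 promoter windows of this length and the RUNX core in 14.05%.
Gzma, chr13:113100982-113101231, minus strand: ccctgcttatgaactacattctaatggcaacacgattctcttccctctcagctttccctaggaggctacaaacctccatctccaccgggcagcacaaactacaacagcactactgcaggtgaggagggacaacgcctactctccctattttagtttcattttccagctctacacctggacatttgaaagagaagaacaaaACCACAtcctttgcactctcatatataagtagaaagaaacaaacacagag
Ncr1, chr7:4337465-4337714, plus strand: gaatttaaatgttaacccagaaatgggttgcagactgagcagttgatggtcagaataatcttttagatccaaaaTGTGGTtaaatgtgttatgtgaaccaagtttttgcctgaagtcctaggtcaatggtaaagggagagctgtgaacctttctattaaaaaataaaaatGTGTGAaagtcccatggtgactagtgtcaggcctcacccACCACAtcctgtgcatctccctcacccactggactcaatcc
Il7r, chr15:9529877-9530126, minus strand: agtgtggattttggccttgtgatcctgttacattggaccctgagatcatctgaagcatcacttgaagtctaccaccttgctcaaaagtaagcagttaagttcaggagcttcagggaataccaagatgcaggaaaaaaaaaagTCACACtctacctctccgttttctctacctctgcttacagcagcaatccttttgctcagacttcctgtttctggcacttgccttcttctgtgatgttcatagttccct
The Gzma window held 1 RUNX core and no T-box core. The Ncr1 window, the first of 2 listed for the gene, held 1 T-box core and 2 RUNX cores. The Il7r window held 1 T-box core and no RUNX core. A match describes the letters and is not evidence of binding. Ccl5 (chromosome 11, 83525778 to 83530518) and Klrd1 (chromosome 6, 129591782 to 129598775) are named without a promoter sequence. Coordinates of genes are from GENCODE M21 on GRCm38. By these, Il7r runs from 9505788 to 9530176 on the minus strand, so its window lies inside the gene.

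The libraries differed in size and depth. They held 6490 passing cells in Gli1-/- JAK2V617F marrow, 3602 in WT JAK2V617F marrow, 3999 in Gli1-/- JAK2WT marrow and 7987 in WT JAK2WT marrow. Their median depth was 13785 UMIs in Gli1-/- JAK2V617F, 13149.5 UMIs in WT JAK2V617F, 17277 UMIs in Gli1-/- JAK2WT and 4187 UMIs in WT JAK2WT marrow. Cytotoxic cells were shallower than this, except the Cd3-detected cells of WT JAK2WT marrow. The median of Cd3-detected cells was 4575 UMIs in Gli1-/- JAK2V617F, 2305 UMIs in WT JAK2V617F, 5008 UMIs in Gli1-/- JAK2WT and 4559.5 UMIs in WT JAK2WT marrow. The median of Cd3-negative cells was 4434.5 UMIs in Gli1-/- JAK2V617F, 2972 UMIs in WT JAK2V617F, 4592 UMIs in Gli1-/- JAK2WT and 3136 UMIs in WT JAK2WT marrow. Gli1 had 0 UMIs in all 685 cells, and among all other passing cells it reached at most 0.0650 CPM (UMI counts of a gene scaled to the same total in every group of cells), so these data give no check of the knockout. Between 5 and 18 passing barcodes were shared by each pair of libraries, and 1 of these was a cytotoxic cell.

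Free RNA, which leaks from other cells into every droplet, was gauged in granulocyte precursors, taken to lack lymphocyte transcripts. These were cells with at least 5 UMIs of Mpo and no Cd3 UMI. Cd3-negative cytotoxic cells that met these limits were not left out, so the shares below can include them and are not free RNA alone. Their median depth was 21670 UMIs in Gli1-/- JAK2V617F, 20364 UMIs in WT JAK2V617F, 23807.5 UMIs in Gli1-/- JAK2WT and 10008 UMIs in WT JAK2WT marrow. The share that met the Ccl5 or Gzma limit was 2.0% in Gli1-/- JAK2V617F, 0.559% in WT JAK2V617F, 1.29% in Gli1-/- JAK2WT and 3.63% in WT JAK2WT marrow. A UMI of Gzma was present in 0.899% of these precursors in Gli1-/- JAK2V617F, 0.0799% in WT JAK2V617F, 0.0428% in Gli1-/- JAK2WT and 2.60% in WT JAK2WT marrow. For Il7r the share was 4.39% in Gli1-/- JAK2V617F, 1.68% in WT JAK2V617F, 4.37% in Gli1-/- JAK2WT and 8.79% in WT JAK2WT marrow. Nkg7 did not separate cytotoxic cells from these precursors, of which 76.8% to 94.9% held an Nkg7 UMI over the 4 libraries. With at least 50 Mpo UMIs, precursors past the Ccl5 or Gzma limit were 1.19% in Gli1-/- JAK2V617F and 0.289% in WT JAK2V617F marrow. They were 0.995% in Gli1-/- JAK2WT and 1.20% in WT JAK2WT marrow. Just inside the limit, 78 cytotoxic cells had exactly 2 UMIs of their higher gene. These were 18 in Gli1-/- JAK2V617F, 4 in WT JAK2V617F, 4 in Gli1-/- JAK2WT and 52 in WT JAK2WT marrow. Just outside the limit, 281 cells met every other condition with 1 UMI. They were 49 in Gli1-/- JAK2V617F, 6 in WT JAK2V617F, 13 in Gli1-/- JAK2WT and 213 in WT JAK2WT marrow. Cells near the limit thus lay mostly in WT JAK2WT marrow. The Rag1 condition removed 47 cells, all from WT JAK2WT marrow.

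The label held in part for both kinds of cells. Genes that the rule did not use and that stood highest above all other passing cells were Xcl1, a chemokine that attracts cross-presenting dendritic cells, Il2rb, a subunit of the interleukin 2 and 15 receptors, Ms4a4b, Klre1, Gimap4, Klrk1, which encodes NKG2D, Ctsw, AW112010, Gimap3 and Gimap7. Their smallest log2 ratio (CPM plus 10) over the 4 libraries was between 3.24 and 4.54. Among the rule genes, Ccl5, a chemokine for T cells and monocytes, had a smallest log2 ratio of 5.84 and Klrd1, which encodes CD94, 3.25. The rule itself raised these ratios, so they do not bear on the label. Trac, the constant region of the T cell receptor alpha chain, was detected in Cd3-detected cells as 36 of 56 in Gli1-/- JAK2V617F, 5 of 9 in WT JAK2V617F, 28 of 49 in Gli1-/- JAK2WT and 152 of 296 in WT JAK2WT marrow. Among Cd3-negative cells it was detected in 7 of 128 in Gli1-/- JAK2V617F, 0 of 23 in WT JAK2V617F, 3 of 83 in Gli1-/- JAK2WT and 1 of 41 in WT JAK2WT marrow. Cd8a or Cd8b1 was found in 1 of all 275 Cd3-negative cells. Constant genes of the other receptor chains were present in them: Trbc1, of the beta chain, was found in 64.8% of Cd3-negative cells in Gli1-/- JAK2V617F, 47.8% in WT JAK2V617F, 48.2% in Gli1-/- JAK2WT and 43.9% in WT JAK2WT marrow, and Tcrg-C4, of the gamma chain, in 58.6% in Gli1-/- JAK2V617F, 47.8% in WT JAK2V617F, 50.6% in Gli1-/- JAK2WT and 14.6% in WT JAK2WT marrow. Trac and the Cd8 genes were thus rare in the Cd3-negative cells, and beta and gamma constant transcripts were not. By the rule, every Cd3-negative cell held a UMI of Klrd1 or Ncr1. Ncr1 was present in 126 of 128 Cd3-negative cells in Gli1-/- JAK2V617F, 20 of 23 in WT JAK2V617F, 80 of 83 in Gli1-/- JAK2WT and 26 of 41 in WT JAK2WT marrow. Killing genes were sparse in them: a UMI of Gzma, Gzmb, Gzmk or Prf1 was found in 29.7% of Cd3-negative cells of Gli1-/- JAK2V617F marrow, 4.35% of WT JAK2V617F, 21.7% of Gli1-/- JAK2WT and 39.0% of WT JAK2WT marrow. They are therefore called Cd3-negative cells below and not mature NK cells. Gzma, a rule gene, was found in 25 of 56 Cd3-detected cells in Gli1-/- JAK2V617F and 1 of 9 in WT JAK2V617F marrow. It was found in 3 of 49 in Gli1-/- JAK2WT and 63 of 296 in WT JAK2WT marrow, so most Cd3-detected cells held none.

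**Figure D1:**
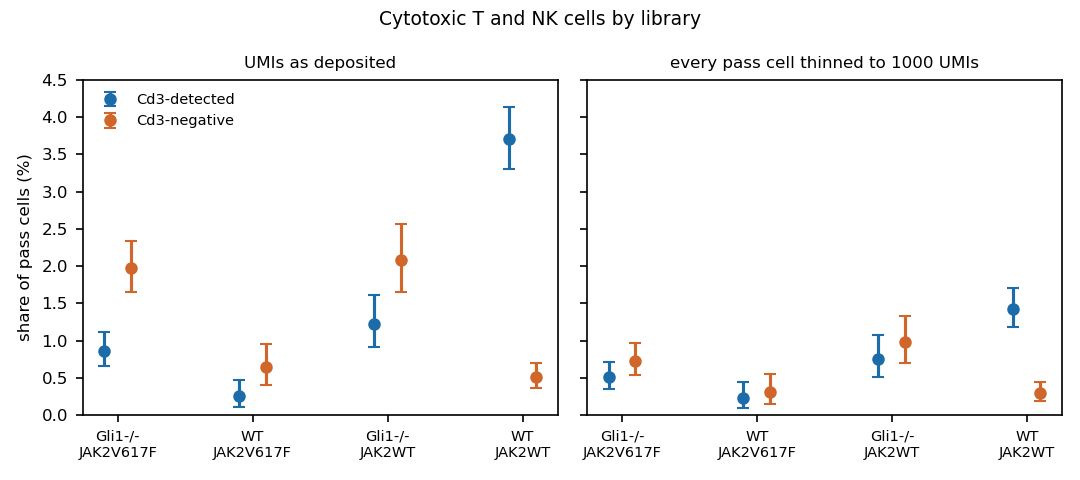
Share of passing cells that were Cd3-detected (blue) or Cd3-negative (orange) cytotoxic cells in each of the 4 libraries, as deposited (left) and with every cell thinned to 1000 UMIs (right); points are percentages and bars exact 95% intervals for counting error. The Cd3-detected share stands highest in WT JAK2WT marrow at 3.71% and lowest in WT JAK2V617F marrow at 0.25%, and the order of the Cd3-detected shares is the same after thinning.

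Cd3-detected cells were scarce in WT JAK2V617F marrow and most frequent in WT JAK2WT marrow. They made up 0.863% of passing cells (56 cells) in Gli1-/- JAK2V617F marrow, 0.25% (9 cells) in WT JAK2V617F, 1.23% (49 cells) in Gli1-/- JAK2WT and 3.71% (296 cells) in WT JAK2WT marrow. With JAK2V617F over JAK2WT the share was 0.0674-fold (0.0348 to 0.131) in wild type and 0.704-fold (0.481 to 1.03) in Gli1 knockout marrow. With Gli1 knockout over wild type it was 3.45-fold (1.71 to 6.97) with JAK2V617F and 0.331-fold (0.245 to 0.446) with JAK2WT. Thinning every cell to 1000 UMIs before the rule was applied gave ratios of 0.156 and 0.678 for JAK2V617F over JAK2WT in wild type and in knockout marrow, and 2.29 and 0.526 for knockout over wild type with JAK2V617F and with JAK2WT. The genotype ratios lay on opposite sides of 1 under both treatments of depth. The WT JAK2WT library also held 428 of the 429 immature T cells of the series. Whether the CD3 depletion was equally complete in the 4 pools was not tested.

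Cd3-negative cells were more frequent in both Gli1 knockout libraries than in both wild type ones. They made up 1.97% (128 cells) of Gli1-/- JAK2V617F, 0.639% (23 cells) of WT JAK2V617F, 2.08% (83 cells) of Gli1-/- JAK2WT and 0.513% (41 cells) of WT JAK2WT marrow. With Gli1 knockout over wild type the share was 3.09-fold (1.99 to 4.81) with JAK2V617F and 4.04-fold (2.79 to 5.87) with JAK2WT. With JAK2V617F over JAK2WT it was 1.24-fold (0.748 to 2.07) in wild type and 0.950-fold (0.723 to 1.25) in Gli1 knockout marrow, intervals that include 1. With every cell thinned to 1000 UMIs, the genotype ratio was 2.37 with JAK2V617F and 3.25 with JAK2WT. More of these cells and fewer of the others in the same sort cannot be told apart in a share. Of all cytotoxic cells, the Cd3-detected ones were 30.4% in Gli1-/- JAK2V617F, 28.1% in WT JAK2V617F, 37.1% in Gli1-/- JAK2WT and 87.8% in WT JAK2WT marrow.

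Genotype and donor sex could not be told apart. Y-linked transcripts were found in 72.7% and 70.2% of all other passing cells of Gli1-/- JAK2V617F and Gli1-/- JAK2WT marrow and in 0 of the cytotoxic cells of both wild type libraries. Every genotype comparison carries this difference, those of shares above and those below.

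**Figure D2:**
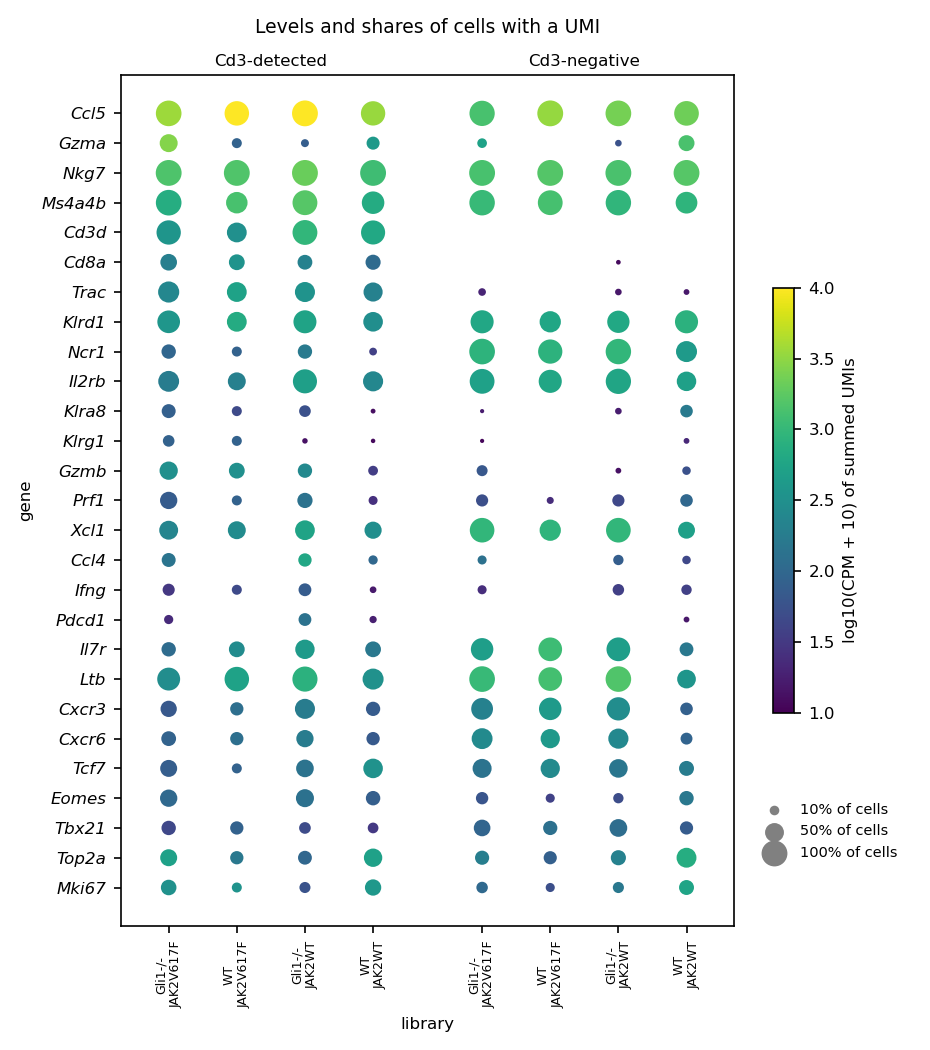
Level and frequency of 27 genes in Cd3-detected (left) and Cd3-negative (right) cells of each library; colour is log10 of CPM plus 10 from UMIs summed over cells, dot area follows the share of cells with at least 1 UMI, and no dot is drawn at 0. Gzma is brightest in Cd3-detected cells of Gli1-/- JAK2V617F marrow (2799 CPM), and Il7r and Xcl1 stand out in Cd3-negative cells of the first 3 libraries.

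Granzyme A set the Cd3-detected cells of Gli1-/- JAK2V617F marrow apart. Gzma (chromosome 13, 113093825 to 113100981, minus strand) measured 2799 CPM (2670 to 2932) in Gli1-/- JAK2V617F marrow, 75.3 CPM (9.11 to 272) in WT JAK2V617F, 66.0 CPM (39.7 to 103) in Gli1-/- JAK2WT and 399 CPM (372 to 428) in WT JAK2WT marrow. A Gzma UMI was found in 25 of 56 Cd3-detected cells (44.6%) in Gli1-/- JAK2V617F, 1 of 9 (11.1%) in WT JAK2V617F, 3 of 49 (6.12%) in Gli1-/- JAK2WT and 63 of 296 (21.3%) in WT JAK2WT marrow. With cells thinned to 2000 UMIs the share was 38.9% in Gli1-/- JAK2V617F, 16.7% in WT JAK2V617F, 6.25% in Gli1-/- JAK2WT and 15.2% in WT JAK2WT marrow, so Gli1-/- JAK2V617F marrow stood highest at equal depth as well. The level rested on few cells: the top 5 held 75.5% of the 1781 Gzma UMIs in Gli1-/- JAK2V617F marrow. Mixed profiles, cells with at least 3% of their UMIs from a list of another lineage, held 47.0% of the Cd3-detected UMIs in Gli1-/- JAK2V617F marrow. Without them Gzma measured 5244 CPM in Gli1-/- JAK2V617F, 75.3 CPM in WT JAK2V617F, 74.9 CPM in Gli1-/- JAK2WT and 419 CPM in WT JAK2WT marrow, in the same order. Since Gzma was part of the rule, these values describe the cells.

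Other effector genes followed a different order over the libraries. Gzmb, granzyme B, measured 299 CPM (258 to 344) in Gli1-/- JAK2V617F marrow, 301 CPM (130 to 593) in WT JAK2V617F, 250 CPM (196 to 315) in Gli1-/- JAK2WT and 25.0 CPM (18.5 to 33.0) in WT JAK2WT marrow. It was found in 26 of 56 cells in Gli1-/- JAK2V617F, 3 of 9 in WT JAK2V617F, 13 of 49 in Gli1-/- JAK2WT and 31 of 296 in WT JAK2WT marrow. Prf1, perforin, measured 62.9 CPM in Gli1-/- JAK2V617F, 75.3 CPM in WT JAK2V617F, 125 CPM in Gli1-/- JAK2WT and 15.8 CPM in WT JAK2WT marrow. Both were lowest in WT JAK2WT marrow. Without mixed profiles Gzmb measured 554 CPM in Gli1-/- JAK2V617F, 301 CPM in WT JAK2V617F, 284 CPM in Gli1-/- JAK2WT and 26.8 CPM in WT JAK2WT marrow, so the order of the first 3 libraries depended on those cells. The rule gene Ccl5 measured 3648 CPM in Gli1-/- JAK2V617F, 11700 CPM in WT JAK2V617F, 9767 CPM in Gli1-/- JAK2WT and 3480 CPM in WT JAK2WT marrow. Without mixed profiles it measured 6661 CPM in Gli1-/- JAK2V617F, 11700 CPM in WT JAK2V617F, 10690 CPM in Gli1-/- JAK2WT and 3703 CPM in WT JAK2WT marrow.

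Receptor genes showed CD8 T cells beside cells with gamma or delta chain transcripts among the Cd3-detected cells. Cd8a or Cd8b1 was present in 41.1% of the cells in Gli1-/- JAK2V617F, 44.4% in WT JAK2V617F, 36.7% in Gli1-/- JAK2WT and 37.2% in WT JAK2WT marrow. Cd4 was present in 2 of 56 cells in Gli1-/- JAK2V617F, 0 of 9 in WT JAK2V617F, 0 of 49 in Gli1-/- JAK2WT and 14 of 296 in WT JAK2WT marrow. Among cells with a Cd8 UMI, Trac was also present in 20 of 23 in Gli1-/- JAK2V617F, 4 of 4 in WT JAK2V617F, 14 of 18 in Gli1-/- JAK2WT and 77 of 110 in WT JAK2WT marrow. A UMI of a gamma or delta chain constant gene without Trac was present in 23.2% of Cd3-detected cells in Gli1-/- JAK2V617F, 22.2% in WT JAK2V617F, 30.6% in Gli1-/- JAK2WT and 25.7% in WT JAK2WT marrow. The Cd8 subset and the subset with gamma or delta transcripts were thus of like size in the 4 libraries, except that WT JAK2V617F marrow rests on 9 cells. Cells with a UMI of the rule gene Ncr1 were not. They were 15 of 56 in Gli1-/- JAK2V617F, 1 of 9 in WT JAK2V617F, 13 of 49 in Gli1-/- JAK2WT and 17 of 296 in WT JAK2WT marrow. Several beta chain variable segments were seen. In Gli1-/- JAK2V617F marrow 8 cells held 5 different Trbv genes, the most frequent of them in 3 cells. In Gli1-/- JAK2WT marrow 9 cells held 8, the most frequent of them in 4 cells. In WT JAK2WT marrow 46 cells held 15, the most frequent of them in 10 cells. No Cd3-negative cell held a Trbv UMI.

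Where Gzma lay among the Cd3-detected cells differed between libraries. Leaving out mixed profiles, cells of Gli1-/- JAK2V617F marrow with a Cd8 UMI had 9347 CPM of Gzma, and those without one had 1642 CPM. In Gli1-/- JAK2WT marrow Gzma measured 90.6 CPM in cells with Cd8 and 68.0 CPM in those without, and in WT JAK2WT marrow 247 CPM with Cd8 and 559 CPM without. Of the Gzma-containing Cd3-detected cells, 19 of 25 in Gli1-/- JAK2V617F marrow, 0 of 1 in WT JAK2V617F, 3 of 3 in Gli1-/- JAK2WT and 13 of 63 in WT JAK2WT marrow also held a Klra UMI. Cycling cells, with at least 2 UMIs of Mki67 and Top2a (genes of dividing cells) together, were 10 of 25 of the Gzma cells in Gli1-/- JAK2V617F, 0 of 1 in WT JAK2V617F, 1 of 3 in Gli1-/- JAK2WT and 34 of 63 in WT JAK2WT marrow. Thus the Gzma cells of Gli1-/- JAK2V617F marrow mostly carried Ly49 transcripts and those of WT JAK2WT marrow mostly did not.

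**Figure D3:**
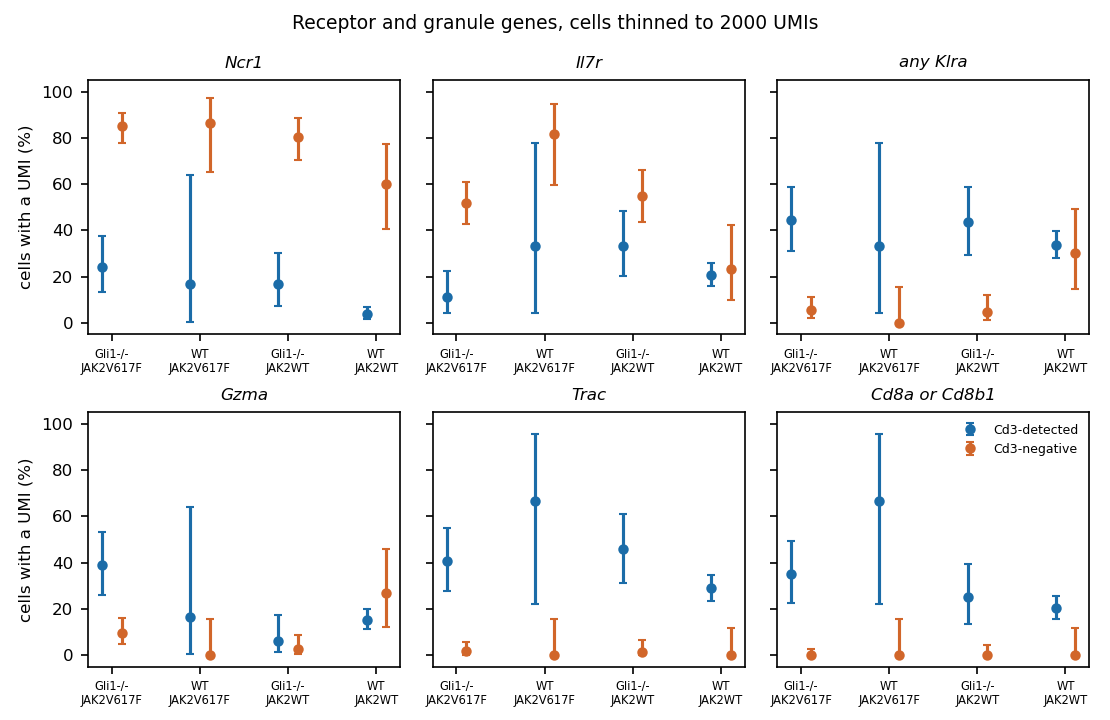
Share of cells with at least 1 UMI of Ncr1, Il7r, any Klra gene, Gzma, Trac, and Cd8a or Cd8b1, with every cell thinned to 2000 UMIs and shallower cells left out; Cd3-detected cells are blue, Cd3-negative cells orange, and bars are exact 95% intervals. Il7r is found in 52.0%, 81.8%, 54.9% and 23.3% of the Cd3-negative cells of Gli1-/- JAK2V617F, WT JAK2V617F, Gli1-/- JAK2WT and WT JAK2WT marrow.

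Cell cycle genes were higher with JAK2V617F than with JAK2WT in the Cd3-detected cells of Gli1 knockout marrow. Of the 30 G2/M genes listed, 29 rose by 2-fold or more and the median log2 ratio was 2.40, beside a median of 0.04 over all genes. Over the 1688 genes that passed the filter (at least 100 CPM in either library and 30 counts in the higher), 11.2% stood 2-fold or more above and 5.04% 2-fold or more below. Top2a, the topoisomerase of dividing cells, measured 503 CPM in Gli1-/- JAK2V617F and 86.8 CPM in Gli1-/- JAK2WT marrow, and Mki67 306 CPM in Gli1-/- JAK2V617F and 48.6 CPM in Gli1-/- JAK2WT marrow. S phase genes had a median of 0.87, with 9 of 20 higher. Past the filter 18 of 19 G2/M genes and 6 of 8 S phase genes were higher, with none lower. As shares of cells, cycling cells were 28.6% in Gli1-/- JAK2V617F and 12.2% in Gli1-/- JAK2WT marrow, and 16.7% and 4.17% with every cell thinned to 2000 UMIs. The chemokine and cytokine list moved the other way, where 8 of 12 genes fell by 2-fold or more and the median was -1.25. This count depended on few cells: without mixed profiles 5 genes were lower (median -0.74), without the cells of highest Scrublet doublet score 4 (-0.67), and by the mean over cells 3 (-0.29). Ccl4 measured 134 CPM in Gli1-/- JAK2V617F and 597 CPM in Gli1-/- JAK2WT marrow (log2 ratio -2.08), and Ccl3 42.4 CPM in Gli1-/- JAK2V617F and 254 CPM in Gli1-/- JAK2WT marrow (-2.33). Both are chemokines that attract other leukocytes. The 3 highest cells held 75.3% of the Ccl4 UMIs in Gli1-/- JAK2V617F and 89.0% in Gli1-/- JAK2WT marrow. Pdcd1, the checkpoint receptor PD-1, measured 12.6 CPM in Gli1-/- JAK2V617F and 125 CPM in Gli1-/- JAK2WT marrow (-2.58), and 4 of 8 checkpoint genes were lower. Past the filter 5 of 6 chemokine and cytokine genes and 3 of 3 checkpoint genes were lower, with none higher. Il7r was lower as well, with 101 CPM in Gli1-/- JAK2V617F and 410 CPM in Gli1-/- JAK2WT marrow (-1.92). Klra1, which encodes the inhibitory receptor Ly49A, measured 17.3 CPM in Gli1-/- JAK2V617F and 111 CPM in Gli1-/- JAK2WT marrow (-2.15).

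Several leading genes of this comparison lay in mixed profiles. The highest ratios belonged to neutrophil genes: Ngp at 7.44, Lcn2 at 7.36, S100a8 at 7.23 and S100a9 at 6.74 on the log2 scale. Ltf, which had no count in Gli1-/- JAK2WT marrow, was at least 149.6-fold higher and Retnlg at least 132.3-fold, against a floor of 3 counts. Mixed profiles numbered 5 of 56 in Gli1-/- JAK2V617F marrow and 1 of 49 in Gli1-/- JAK2WT, and held 47.0% of the Cd3-detected UMIs in Gli1-/- JAK2V617F and 11.9% in Gli1-/- JAK2WT marrow. Summed myeloid markers in the Cd3-detected cells measured 62790 CPM in Gli1-/- JAK2V617F marrow, or 3981 CPM without mixed profiles, and 4043 CPM in Gli1-/- JAK2WT marrow. Without them the log2 ratio of Ngp was -0.09, of S100a9 0.86 and of Lcn2 1.83, and the genes at least 2-fold higher and lower numbered 114 and 40, against 189 and 85 with them. The plasma cell gene Mzb1 was lowest at -3.05, and stood at 0.37 without mixed profiles. Jchain, the joining chain of secreted antibodies, measured 773 CPM in Gli1-/- JAK2V617F and 4752 CPM in Gli1-/- JAK2WT marrow (-2.60, and -4.29 without mixed profiles). Jchain measured 610 and 7509 CPM in all other passing cells, so it differed between the libraries as a whole. The T cell receptor and CD3 list, with 7 of 11 genes lower and a median of -1.22, had a median of -0.52 and 2 lower genes without mixed profiles. The G2/M count rested less on them: Top2a measured 617 CPM in Gli1-/- JAK2V617F marrow without them.

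With JAK2WT, the cell cycle genes of Cd3-detected cells were lower in Gli1 knockout than in wild type marrow, and several effector genes were higher. Of the 30 G2/M genes, 29 were at least 2-fold lower, with a median log2 ratio of -1.90, and 15 of 20 S phase genes were lower, with a median of -1.30. The median over all genes was -0.05, and of the 1631 genes past the filter 8.03% were lower and 4.17% higher. Of the listed genes past it, 10 of 10 G2/M genes and 9 of 11 S phase genes were lower, with none higher. Ube2c, which marks mitotic proteins for destruction, measured 24.3 CPM in Gli1-/- JAK2WT and 290 CPM in WT JAK2WT marrow (-3.13). Cenpf, a kinetochore protein, stood at -3.0, the histone gene Hist1h3c at -2.96 and Birc5, which encodes survivin, at -2.92. Cycling cells were 12.2% in Gli1-/- JAK2WT and 34.8% in WT JAK2WT marrow, and 4.17% and 22.6% after thinning. Genes of T cell precursors were lower too. Dntt, the enzyme that adds bases at receptor joints, had 0 counts in Gli1-/- JAK2WT and 411 in WT JAK2WT marrow, at least 20.1-fold lower. Arpp21, a gene of thymocytes, was at least 9.83-fold lower and Marcks, a membrane substrate of protein kinase C, at least 14.8-fold lower. Dntt was found in 71 of the 296 cells of WT JAK2WT marrow. The summed immature T markers measured 72.9 CPM in the Cd3-detected cells of Gli1-/- JAK2WT and 412 CPM in those of WT JAK2WT marrow, and the part of these cells in the result was not tested.

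Granule, chemokine and checkpoint genes led the higher ones in this comparison. Gzmb had a log2 ratio of 2.90, Prf1 of 2.39, Pdcd1 of 2.90, Ccl4 of 2.61 and Ccl3 of 2.58. Gzmb and Prf1 were found in 26.5% and 30.6% of the Cd3-detected cells of Gli1-/- JAK2WT marrow and in 10.5% and 8.45% of those of WT JAK2WT marrow. Of the checkpoint list 4 of 8 genes were at least 2-fold higher (median 1.19), of the chemokine and cytokine list 5 of 12 (median 0.92), and of the granule list 5 of 18, with 1 lower (median 0.60). NK receptor genes were split, with 7 of 21 higher and 2 lower (median 0.52). Past the filter, 2 of 3 checkpoint genes and 4 of 6 chemokine and cytokine genes were higher, with none lower. Of the granule genes past it 3 of 8 were higher and 1 lower, and of the NK receptor genes 5 of 12 and 1. Spp1, the secreted matrix protein osteopontin, stood at 2.78 but was found in 2 of 49 cells of Gli1-/- JAK2WT marrow. Tpm3-rs7, a tropomyosin-related sequence, was highest at 3.33, with 132 CPM in Gli1-/- JAK2WT and 4.08 CPM in WT JAK2WT marrow. In all other passing cells it measured 153 CPM in Gli1-/- JAK2V617F, 3.97 CPM in WT JAK2V617F, 143 CPM in Gli1-/- JAK2WT and 4.19 CPM in WT JAK2WT marrow, so it differed between genotypes in every kind of cell compared. Jchain stood at 2.14, and at 0.95 without mixed profiles. No Cd3-detected gene comparison was made with WT JAK2V617F marrow, whose 9 cells fell under the limit of 20 cells.

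**Figure D4:**
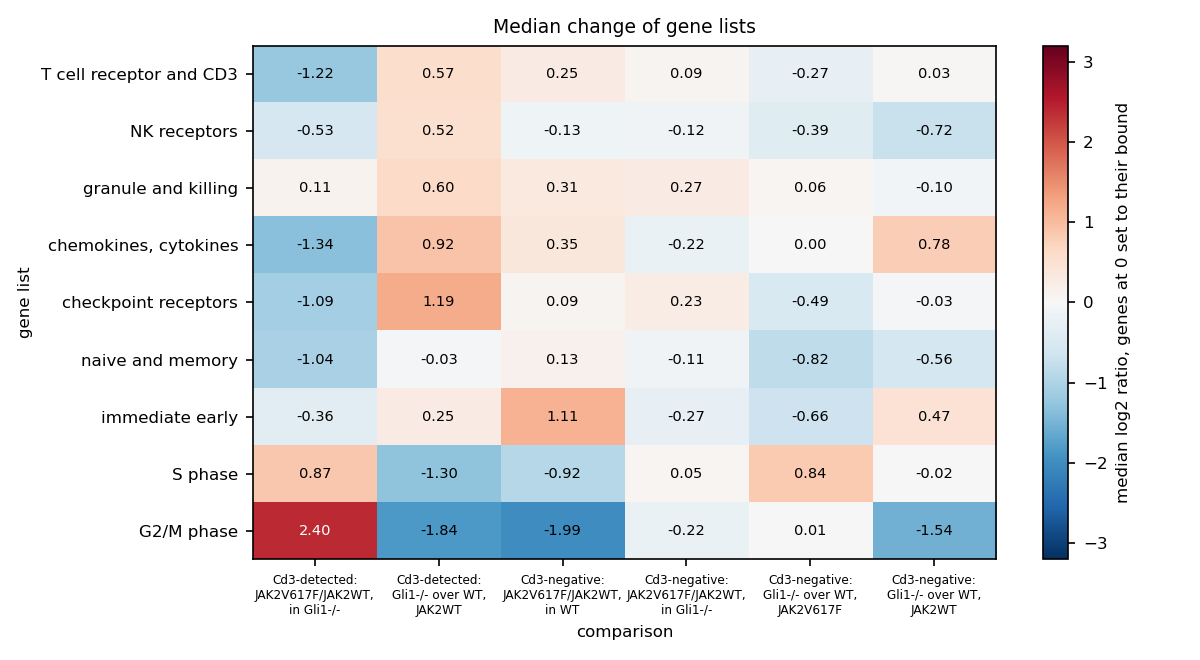
Median log2 ratio of 9 gene lists (rows) in 6 comparisons between libraries (columns), with the group named first over the group named second; genes with 0 counts on one side are set to their bound against a floor of 3 counts. G2/M genes have a median of 2.40 in Cd3-detected cells for JAK2V617F over JAK2WT in Gli1 knockout marrow and -1.84 for Gli1 knockout over wild type in the JAK2WT groups. The median is 0.01 in Cd3-negative cells for Gli1 knockout over wild type with JAK2V617F.

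Cd3-negative cells of 3 libraries carried Ncr1 with Il7r and little Gzma. Those of WT JAK2WT marrow held more Gzma and Eomes and more often a Klra UMI. Il7r (chromosome 15, 9505788 to 9530176, minus strand) measured 459 CPM (414 to 508) in Gli1-/- JAK2V617F marrow, 1144 CPM (907 to 1423) in WT JAK2V617F, 459 CPM (404 to 520) in Gli1-/- JAK2WT and 148 CPM (96.8 to 217) in WT JAK2WT marrow. It was found in 73.4% of Cd3-negative cells in Gli1-/- JAK2V617F, 82.6% in WT JAK2V617F, 83.1% in Gli1-/- JAK2WT and 24.4% in WT JAK2WT marrow, so WT JAK2WT marrow stood apart. Gzma measured 529 CPM (480 to 581) in Gli1-/- JAK2V617F marrow, 0 CPM (up to 52.7) in WT JAK2V617F, 47.6 CPM (31.1 to 69.7) in Gli1-/- JAK2WT and 1373 CPM (1205 to 1558) in WT JAK2WT marrow. The Gzma cells were few, with 13 of 128 in Gli1-/- JAK2V617F, 0 of 23 in WT JAK2V617F, 3 of 83 in Gli1-/- JAK2WT and 14 of 41 in WT JAK2WT marrow. The share with a Klra UMI was 6.25% in Gli1-/- JAK2V617F, 0% in WT JAK2V617F, 9.64% in Gli1-/- JAK2WT and 39.0% in WT JAK2WT marrow, where 0 of 23 allows up to 14.8%. In WT JAK2WT marrow 13 of the 14 Gzma cells carried a Klra UMI, and in Gli1-/- JAK2V617F marrow 1 of 13 did. Gzma and Il7r rarely met in 1 cell, with 3 in Gli1-/- JAK2V617F, 0 in WT JAK2V617F, 1 in Gli1-/- JAK2WT and 2 in WT JAK2WT marrow holding both. Split by Il7r and without mixed profiles, the 93 cells of Gli1-/- JAK2V617F marrow with Il7r had 70.5 CPM of Gzma, and the 33 without Il7r had 1642 CPM. In Gli1-/- JAK2WT marrow Gzma measured 7.84 CPM in the 68 cells with Il7r and 227 CPM in the 13 without. In WT JAK2WT marrow it measured 70.5 CPM in the 10 cells with Il7r and 1883 CPM in the 30 without.

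Other genes of these cells showed the same split of libraries. Ltb, lymphotoxin beta, measured 1042 CPM in Gli1-/- JAK2V617F, 1258 in WT JAK2V617F, 1473 in Gli1-/- JAK2WT and 353 CPM in WT JAK2WT marrow. The homing receptor Cxcr3 measured 195 CPM in Gli1-/- JAK2V617F, 415 CPM in WT JAK2V617F, 280 CPM in Gli1-/- JAK2WT and 74.1 CPM in WT JAK2WT marrow, and Cxcr6 256 CPM in Gli1-/- JAK2V617F, 400 CPM in WT JAK2V617F, 242 CPM in Gli1-/- JAK2WT and 79.8 CPM in WT JAK2WT marrow. All 3 were lowest in WT JAK2WT marrow. Xcl1 measured 936 CPM in Gli1-/- JAK2V617F, 886 CPM in WT JAK2V617F, 932 CPM in Gli1-/- JAK2WT and 490 CPM in WT JAK2WT marrow. Id2, the repressor that innate lymphoid cells need, measured 1005 CPM in Gli1-/- JAK2V617F, 1715 CPM in WT JAK2V617F, 1246 CPM in Gli1-/- JAK2WT and 672 CPM in WT JAK2WT marrow. Eomes, the T-box factor of mature NK cells, ran the other way with 51.2 CPM in Gli1-/- JAK2V617F, 28.6 CPM in WT JAK2V617F, 40.3 CPM in Gli1-/- JAK2WT and 148 CPM in WT JAK2WT marrow. The Ly49 gene Klra8 measured 7.31 CPM in Gli1-/- JAK2V617F, 0 CPM in WT JAK2V617F, 7.32 CPM in Gli1-/- JAK2WT and 160 CPM in WT JAK2WT marrow. Tbx21, which encodes T-bet, differed less, with 82.9 CPM in Gli1-/- JAK2V617F, 114 CPM in WT JAK2V617F, 106 CPM in Gli1-/- JAK2WT and 62.7 CPM in WT JAK2WT marrow. Thinned to 2000 UMIs, cycling cells were 4.72% in Gli1-/- JAK2V617F, 4.55% in WT JAK2V617F, 2.44% in Gli1-/- JAK2WT and 26.7% in WT JAK2WT marrow, so dividing cells were also most frequent in WT JAK2WT marrow. Unthinned, the share was 15.6% in Gli1-/- JAK2V617F, 8.70% in WT JAK2V617F, 10.8% in Gli1-/- JAK2WT and 39.0% in WT JAK2WT marrow. Summed markers of B cells in the Cd3-negative cells measured 60.9 CPM in Gli1-/- JAK2V617F, 0 CPM in WT JAK2V617F, 22 CPM in Gli1-/- JAK2WT and 399 CPM in WT JAK2WT marrow. Summed markers of plasmacytoid and dendritic cells measured 1444 CPM in Gli1-/- JAK2V617F, 972 CPM in WT JAK2V617F, 3419 CPM in Gli1-/- JAK2WT and 3230 CPM in WT JAK2WT marrow, and without mixed profiles 773 CPM in Gli1-/- JAK2V617F, 972 CPM in WT JAK2V617F, 2149 CPM in Gli1-/- JAK2WT and 1533 CPM in WT JAK2WT marrow. Their part in these results was not tested.

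In wild type marrow, JAK2V617F over JAK2WT set 23 Cd3-negative cells against 41. Of 690 genes past the filter, 6.81% stood 2-fold or more above and 18.3% as far below. Il7r had a log2 ratio of 2.87. Gimap3, a GTPase of lymphocyte survival, measured 1587 CPM in WT JAK2V617F and 239 CPM in WT JAK2WT marrow (2.68). Ifngr1, a subunit of the interferon gamma receptor, measured 1901 CPM in WT JAK2V617F and 393 CPM in WT JAK2WT marrow (2.25), and Junb, an immediate early factor, 1015 CPM in WT JAK2V617F and 188 CPM in WT JAK2WT marrow (2.37). Dusp2, a phosphatase of activated lymphocytes, stood at 2.26 and Ckb, brain-type creatine kinase, at 2.20. Of 18 immediate early and stress genes 11 were higher and 2 lower (median 1.11), beside 0.09 over all genes. Of the 7 of them past the filter 5 were higher and 1 lower. Of 24 interferon response genes 10 were higher and 3 lower (median 0.67), but of the 7 past the filter none was higher and 2 were lower, so the higher ones were all genes of low counts. NK receptor genes were split, with 8 of 22 higher and 8 lower (median -0.43). Of the 8 NK receptor genes past the filter, 4 were higher and 1 was lower. All 30 G2/M genes were lower by the ratio of CPM plus 10 (median -3.18), but 17 of them had no count in 1 library, and with those at their bound the median was -1.99. Past the filter 12 of 12 G2/M genes were lower. Gzma, with 0 counts in WT JAK2V617F and 241 in WT JAK2WT marrow, was at least 32.0-fold lower. Cenpf was at least 9.03-fold, Cenpa 8.77-fold and Nusap1 5.85-fold lower, all genes of mitosis, and Hist1h1b stood at -4.58 with 1 count in WT JAK2V617F and 100 in WT JAK2WT marrow. Vpreb3, a gene of B cell precursors, was at least 5.71-fold lower.

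In Gli1 knockout marrow the Cd3-negative cells of the JAK2V617F and JAK2WT groups were close. Of 1773 genes past the filter, 0.959% (17) stood 2-fold or more above and 0.902% (16) as far below, and G2/M genes had a median of -0.22 with 2 lower. Gzma stood at 3.23 on the log2 scale. Prss34, Ccl6 and Mcpt8, genes of mast cells, basophils and myeloid cells, stood at 4.45, 3.25 and 1.82, and the 3 highest cells held 95.1% of the Prss34 UMIs in Gli1-/- JAK2V617F marrow. The mast cell and basophil markers summed to 550 CPM in Gli1-/- JAK2V617F and 45.8 CPM in Gli1-/- JAK2WT Cd3-negative cells. Apoe, an apolipoprotein, stood at 2.99. Ifitm1, an interferon-induced membrane protein, measured 413 CPM in Gli1-/- JAK2V617F and 82.4 CPM in Gli1-/- JAK2WT marrow (2.20), and in all other passing cells 1024 CPM in Gli1-/- JAK2V617F and 211 CPM in Gli1-/- JAK2WT marrow. Krt83, a hair keratin, was found in 57 of 128 cells of Gli1-/- JAK2V617F and 15 of 83 of Gli1-/- JAK2WT marrow (1.60). The lowest were Jchain (-3.04), Irf8, a factor of dendritic and monocyte precursors (-1.92), Elane (-1.86, and -0.83 without mixed profiles), Ly6c2 (-1.41, and -0.49), Arl4d (-1.31) and the class II chaperone Cd74 (-1.30).

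Between genotypes with JAK2V617F, Gzma and Klrb1b were the extreme genes of the Cd3-negative cells. Of the genes tested for Gli1 knockout over wild type, 12.3% of 1096 genes were at least 2-fold higher and 1.55% lower, in 128 cells against 23. The 23 cells of WT JAK2V617F marrow held 69959 UMIs in all, and 15 of 28 measured G2/M genes had no count in them. The median of the 28 genes was 1.38 by CPM plus 10 and 0.01 with the genes without a count at their bound. Gzma, with 434 counts in Gli1-/- JAK2V617F and 0 in WT JAK2V617F marrow, was at least 12.3-fold higher, Tpm3-rs7 at least 3.95-fold, Lsm3, a spliceosome subunit, at least 3.92-fold, Myb, a factor of blood progenitors, at least 3.33-fold, Mcpt8 at least 2.84-fold and Ccl4 at least 2.76-fold. Klrb1b (chromosome 6, 128813706 to 128826331, minus strand), which encodes the inhibitory receptor NKR-P1B, was lowest at -4.77. It was found in 10 of 128 cells of Gli1-/- JAK2V617F marrow and 21 of 23 of WT JAK2V617F marrow, and in 6 of 83 and 9 of 41 cells of Gli1-/- JAK2WT and WT JAK2WT marrow. Its level was 13.4 CPM in Gli1-/- JAK2V617F, 629 CPM in WT JAK2V617F, 11.0 CPM in Gli1-/- JAK2WT and 131 CPM in WT JAK2WT marrow. In all other passing cells it was 0.157 CPM in Gli1-/- JAK2V617F, 1.48 CPM in WT JAK2V617F, 0.0260 CPM in Gli1-/- JAK2WT and 0.883 CPM in WT JAK2WT marrow. Both genotype pairs thus had the lower level in the knockout. Its neighbour Klrb1c, which encodes NK1.1, measured 204 CPM in Gli1-/- JAK2V617F and 801 CPM in WT JAK2V617F marrow (-1.92). The immediate early gene Fosb measured 204 CPM in Gli1-/- JAK2V617F and 1043 CPM in WT JAK2V617F marrow (-2.30), Ly6c2 stood at -1.88, Txnip at -1.69 and Dusp2 at -1.62.

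With JAK2WT, Gli1 knockout over wild type gave 5.42% of 1458 genes higher and 3.64% lower in the Cd3-negative cells, in 83 cells against 41. Ltb stood at 2.03, Gimap7, a lymphocyte GTPase, at 2.03, the tetraspanin gene Cd82 at 1.89, Igfbp4, which binds insulin-like growth factors, at 2.05 and Arl4d at 2.14. For Igfbp4 the mean over cells gave 0.50 in place of 2.05. Tpm3-rs7 was at least 10.6-fold higher. The lowest were Gzma at -4.59, the B cell genes Vpreb3 and Ebf1, at least 44.6-fold and 39.4-fold lower against the floor, and Birc5 (-2.38), Nusap1 (-2.27) and Hmmr (-2.25), genes of mitosis. Of the G2/M list 28 genes were lower, with a median of -1.54, and the S phase median was -0.02. Past the filter 10 of 12 G2/M genes were lower and none was higher. NK receptor genes divided into 4 higher and 10 lower of 23 (median -0.72), but of the 10 past the filter 3 were higher and 2 lower. Of 11 chemokine and cytokine genes 4 were higher with none lower, and 1 of the 4 past the filter was higher. The granule list had 1 higher and 5 lower genes, and of its 6 genes past the filter none was higher and 1 was lower.

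Set against the Cd3-negative cells of the same library, Cd3-detected cells were higher in CD8 genes and in some Ly49 genes in the 3 libraries that could be compared. They had 5.85% of 1778 genes at least 2-fold higher and 4.16% lower in Gli1-/- JAK2V617F marrow, 2.77% and 5.13% of 1734 in Gli1-/- JAK2WT marrow, and 2.77% and 3.80% of 1262 in WT JAK2WT marrow. The median over all genes was -0.15 in Gli1-/- JAK2V617F, -0.20 in Gli1-/- JAK2WT and -0.05 in WT JAK2WT marrow. Ratios of Cd3-detected over Cd3-negative cells are given for Gli1-/- JAK2V617F, Gli1-/- JAK2WT and WT JAK2WT marrow in turn. Outside the rule genes, Cd8a had log2 ratios of 4.25, 4.09 and 3.43 and Cd8b1 of 4.22, 4.30 and 3.02. Cd247, the CD3 zeta chain, stood at 1.98, 2.53 and 1.94. Of the Ly49 genes, Klra6 stood at 2.63, 3.86 and 2.17, Klra1 at 1.13, 2.41 and 2.55, and Klra7 at 3.17, 1.25 and 0.96. The family is best known from NK cells, and not all of it followed this order: Klra8 measured 3.06 CPM in Cd3-detected and 160 CPM in Cd3-negative cells of WT JAK2WT marrow. Jchain kept its sign at 4.51, 4.07 and 1.60, but stood at -0.88, 0.25 and -0.96 without mixed profiles. These ratios describe cells divided by Cd3, and the Klra genes share sequence, so reads may be split between them.

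Genes lower in the Cd3-detected cells included receptors of innate lymphocytes. Ckb stood at -3.67, -3.97 and -1.98 in Gli1-/- JAK2V617F, Gli1-/- JAK2WT and WT JAK2WT marrow, and was found in 80 of 128, 56 of 83 and 7 of 41 Cd3-negative cells and in 14 of 23 of WT JAK2V617F marrow. Tmem176b, a cation channel gene, measured in Cd3-detected cells 148 CPM in Gli1-/- JAK2V617F, 113 CPM in WT JAK2V617F, 97.3 CPM in Gli1-/- JAK2WT and 88.1 CPM in WT JAK2WT marrow. In Cd3-negative cells it measured 1197 CPM in Gli1-/- JAK2V617F, 1301 CPM in WT JAK2V617F, 880.3 CPM in Gli1-/- JAK2WT and 382 CPM in WT JAK2WT marrow. Arg1, arginase 1, stood at -3.28 in Gli1-/- JAK2V617F, -3.26 in Gli1-/- JAK2WT and -1.63 in WT JAK2WT marrow, and the Cd3-negative cells with Arg1 numbered 29 in Gli1-/- JAK2V617F, 7 in WT JAK2V617F, 26 in Gli1-/- JAK2WT and 3 in WT JAK2WT marrow. The NK receptor genes Klrb1a (-2.94, -2.35 and -2.65) and Klrb1f (-2.47, -2.29 and -2.02) and the carbonic anhydrase gene Car2 (-2.27, -3.07 and -2.31) were lower as well. The class II genes H2-Eb1, H2-Aa and H2-Ab1 were also lower in Gli1-/- JAK2V617F, Gli1-/- JAK2WT and WT JAK2WT marrow. All were past 2-fold except H2-Ab1 in Gli1-/- JAK2V617F marrow (-0.80). But of the H2-Aa UMIs of Cd3-negative cells, 3 cells held 61.1% in Gli1-/- JAK2V617F, 56.2% in Gli1-/- JAK2WT and 89.9% in WT JAK2WT marrow. Without mixed profiles H2-Eb1 stood at -0.43 in Gli1-/- JAK2V617F marrow and H2-Ab1 at -0.65 in Gli1-/- JAK2V617F and -0.25 in WT JAK2WT marrow, all under 2-fold. Markers of group 2 innate lymphoid cells summed in Cd3-detected cells to 48.7 CPM in Gli1-/- JAK2V617F, 151 CPM in WT JAK2V617F, 170.2 CPM in Gli1-/- JAK2WT and 104 CPM in WT JAK2WT marrow. In Cd3-negative cells they summed to 370.4 CPM in Gli1-/- JAK2V617F, 572 CPM in WT JAK2V617F, 437 CPM in Gli1-/- JAK2WT and 245 CPM in WT JAK2WT marrow. G2/M genes did not keep a direction, with medians of 1.56 in Gli1-/- JAK2V617F, -1.07 in Gli1-/- JAK2WT and -0.70 in WT JAK2WT marrow.

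**Figure D5:**
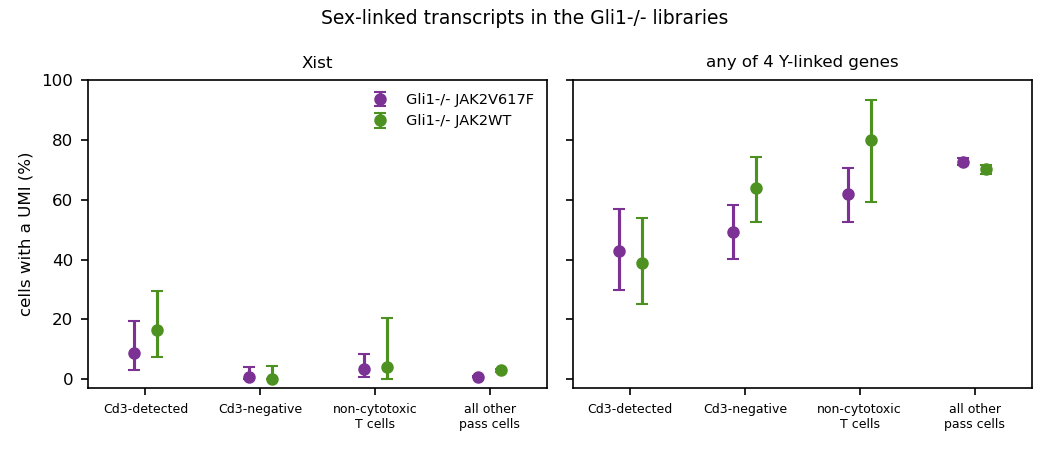
Share of cells with a UMI of Xist (left) or of any of 4 Y-linked genes (right) in the 2 Gli1 knockout libraries, for Cd3-detected, Cd3-negative, other T cells and all other passing cells; bars are exact 95% intervals. Xist is found in 8.93% and 16.3% of the Cd3-detected cells and in 0.781% and 0% of the Cd3-negative cells of Gli1-/- JAK2V617F and Gli1-/- JAK2WT marrow.

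Sex-linked transcripts divided the Cd3-detected cells of the Gli1 knockout libraries. The recipients were female, and most cells of these libraries carried Y-linked transcripts. Xist, the RNA of the inactive X chromosome, was found in 5 of 56 Cd3-detected cells of Gli1-/- JAK2V617F marrow (8.93%, 2.96 to 19.6) and 8 of 49 of Gli1-/- JAK2WT marrow (16.3%, 7.32 to 29.7). It was found in 1 of 128 and 0 of 83 Cd3-negative cells, where 0 allows up to 4.35%, and in 0.936% and 3.00% of all other passing cells. Y-linked genes were found in 42.9% and 38.8% of Cd3-detected, 49.2% and 63.9% of Cd3-negative and 72.7% and 70.2% of all other passing cells. The other cells were deeper, which raises their shares. Of the cells with only one of the 2 kinds of transcript, those with Xist were 4 of 27 (14.8%) in Gli1-/- JAK2V617F and 8 of 27 (29.6%) in Gli1-/- JAK2WT marrow. All 4 and 6 of the 8 carried a Cd8 UMI, against 6 of 23 and 4 of 19 of the cells with Y-linked transcripts only. Whether they were cells of the recipient was not tested. In the wild type libraries, Xist was found in 88.9% and 93.9% of Cd3-detected and 78.3% and 90.2% of Cd3-negative cells of WT JAK2V617F and WT JAK2WT marrow, so donor and recipient could not be separated there.

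GFP, on which the cells were sorted, was close to undetected in the cytotoxic cells. A GFP UMI was found in 2 of 184 cytotoxic cells (1.09%) in Gli1-/- JAK2V617F, 1 of 32 (3.13%) in WT JAK2V617F, 2 of 132 (1.52%) in Gli1-/- JAK2WT and 0 of 337 (up to 1.09%) in WT JAK2WT marrow. In all other passing cells the share was 1.02% in Gli1-/- JAK2V617F, 2.72% in WT JAK2V617F, 0.129% in Gli1-/- JAK2WT and 0.588% in WT JAK2WT marrow. With cells thinned to 2000 UMIs no cytotoxic cell held GFP, which allows shares of up to 2.02% in Gli1-/- JAK2V617F, 12.3% in WT JAK2V617F, 2.80% in Gli1-/- JAK2WT and 1.22% in WT JAK2WT marrow. The files do not say which cells came from the GFP-positive sort, so the share of transduced cytotoxic cells was not detectable at this depth. Jak2 measured in the Cd3-detected cells 47.2 CPM in Gli1-/- JAK2V617F, 37.6 CPM in WT JAK2V617F, 62.5 CPM in Gli1-/- JAK2WT and 43.8 CPM in WT JAK2WT marrow, and a 3′ library does not separate mutant from normal transcripts.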

How the data were processed

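Droplet libraries (10x Genomics Single Cell 3' v3.1) of bone marrow from 4 transplant groups were analysed. The deposited values are raw counts: UMI counts per gene and cell barcode, not normalised by the authors. Per the submitters' processing notes, Cell Ranger 4.0.0, mm10 and Seurat 4.0.4 were used, with no roles given. Cell barcodes had been called before deposit. The hashing libraries were not analysed here, so cells were not traced to mice, and each library is 1 sample. The libraries held 114847114 UMIs in Gli1-/- JAK2V617F, 59165347 in WT JAK2V617F, 84063880 in Gli1-/- JAK2WT and 72458173 in WT JAK2WT marrow.

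Cells needed 500 or more genes, 1000 or more UMIs and a mitochondrial part below 10%. The cells, the gene lists and the comparisons were chosen with earlier results of these data known. Counts were summed over the cells of a kind and scaled to the same total (CPM), with exact Poisson intervals. Intervals of shares are Clopper-Pearson, those of their ratios log-normal. Log2 ratios had 10 CPM added to both sides. A gene was compared if it had at least 100 CPM in either library and 30 counts in the higher one, with at least 20 cells a kind, and was called at 2-fold. List members needed 10 CPM in either library. With 1 library per group no test was run and no p-value is given. A gene with no count on one side was set against a floor of 3 counts per library. Genes named are those of the rule, the 6 highest and 6 lowest log2 ratios of each comparison, the 12 leading genes against all other cells and up to 4 members of a quoted list. Sex-linked markers, immunoglobulin and receptor segments and haemoglobin, predicted, ribosomal protein and mitochondrial genes were not ranked. Fosb, Cxcr3, Cxcr6, Ltb, Id2, Eomes, Klra8, Klrb1b and the Trbv counts were described after their values had been seen. Granulocyte precursors are passing cells with at least 5 UMIs of Mpo and no UMI of a Cd3 gene, and cytotoxic cells that met this were not left out.

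Doublets were kept. As an alternative, Scrublet in scanpy removed the highest-scoring 0.8% per 1000 barcodes. Mixed profiles (at least 3% of UMIs from a neutrophil, granule, immunoglobulin or class II list), the comparisons of Cd3-negative cells, the splits by Cd8 and Il7r, and the limit of 50 Mpo UMIs were added after seeing the data. The calculation of ratios was tested on simulated data. Python 3.11.15, numpy 2.4.6, scipy 1.17.1, pandas 2.3.3, scanpy 1.11.5 and matplotlib 3.10.9 were used.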

Additional observations from a re-analysis of the deposited data

Results flagged for a closer look

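Each difference here is between contrasts of single libraries, and none was tested. The share of Cd3-detected cells was 3.45-fold for Gli1 knockout over wild type with JAK2V617F and 0.331-fold with JAK2WT. The ratios pointed in opposite directions, and they rest on 56 and 9 cells for the first and 49 and 296 for the second.

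Gzma in Cd3-negative cells moved in opposite directions in both kinds of contrast. For JAK2V617F over JAK2WT it measured 0 CPM in WT JAK2V617F and 1373 CPM in WT JAK2WT marrow, but 529 CPM in Gli1-/- JAK2V617F and 47.6 CPM in Gli1-/- JAK2WT marrow. For Gli1 knockout over wild type the same values pair as 529 CPM in Gli1-/- JAK2V617F and 0 CPM in WT JAK2V617F, and as 47.6 CPM in Gli1-/- JAK2WT and 1373 CPM in WT JAK2WT. The top 5 cells held 83.2% of the Gzma UMIs in Gli1-/- JAK2V617F and 82.2% in WT JAK2WT marrow.

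Il7r in Cd3-negative cells measured 459 CPM in Gli1-/- JAK2V617F and 1144 CPM in WT JAK2V617F marrow, and 459 CPM in Gli1-/- JAK2WT and 148 CPM in WT JAK2WT marrow. The genotype contrast was thus lower with JAK2V617F and higher with JAK2WT.

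The G2/M list of Cd3-negative cells had a median log2 ratio of 1.38 for Gli1 knockout over wild type with JAK2V617F and -1.54 with JAK2WT. With genes at 0 set to their bound, the first was 0.01, so its direction rests on genes without a count in 23 cells with 69959 UMIs in all. The mast cell and basophil list had a median of 2.48 with JAK2V617F, or 0.93 at the bound, and -1.0 with JAK2WT. It stands on 6 and 4 measured genes, and 3 cells held 95.1% of the Prss34 UMIs in Gli1-/- JAK2V617F marrow.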

How the results depend on the processing

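No paired analysis was possible because each group is 1 library, and for the same reason no replicate could be left out. No median past 2-fold of the T and NK cell lists named here changed sign. Without mixed profiles the single genes Ngp (-0.09 in place of 7.44) and Mzb1 (0.37 in place of -3.05) did in Cd3-detected cells, and the NK receptor median of the first list contrast, -0.53, turned positive under the alternatives given below. Of the alternatives, 29 left a share of passing cells within counting error and 11 moved it. With every cell thinned to 1000 UMIs, the Cd3-detected share was 0.509% in Gli1-/- JAK2V617F, 0.750% in Gli1-/- JAK2WT and 1.43% in WT JAK2WT marrow, and the Cd3-negative share 0.724%, 0.975% and 0.301% in these and 0.305% in WT JAK2V617F marrow. A mitochondrial limit of 5% gave 4.15% Cd3-detected cells in WT JAK2WT marrow. A minimum of 4 UMIs gave 2.89% there, and Cd3-negative shares of 0.263% there and 1.46% in Gli1-/- JAK2V617F marrow.

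In Cd3-detected cells, JAK2V617F over JAK2WT in knockout marrow had 124 genes higher and 40 lower with 50 CPM added, 861 and 436 without the filter, 90 and 35 by the mean over cells, and 114 and 40 without mixed profiles; without Scrublet doublets 32 were lower. Knockout over wild type with JAK2WT had 33 higher and 79 lower with 50 CPM added, 244 and 615 without the filter, and 82 lower by the mean over cells. The list medians of the first contrast moved most. The T cell receptor list was -1.01 with 50 CPM added, -0.41 by the mean over cells, -0.32 without Scrublet doublets and -0.52 without mixed profiles. NK receptors were -0.27, 0.12, 0.07 and -0.04 under these, and chemokines -0.86, -0.29, -0.67 and -0.74. The granule list was 0.54 by the mean over cells and 0.42 without mixed profiles. With 50 CPM added, checkpoint genes were -0.37, S phase genes 0.51 and G2/M genes 1.49; S phase was 1.26 without Scrublet doublets and G2/M 1.87 by the mean over cells. For knockout over wild type with JAK2WT, 50 CPM gave 0.35 for NK receptors, 0.33 for granule, 0.69 for chemokine, 0.57 for checkpoint, -0.81 for S phase and -1.02 for G2/M genes. Without Scrublet doublets the T cell receptor list was 0.45 and S phase -1.61.

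Thinned to 1000 UMIs, Cd3-detected minus Cd3-negative cells with Trac came to 19.9 percentage points in Gli1-/- JAK2V617F, 22.2 in WT JAK2V617F and 20.3 in WT JAK2WT marrow, and with Ncr1 to -19.3 in WT JAK2V617F and -25.9 in WT JAK2WT marrow. At 2 UMIs, Y-linked genes marked 17.9% and 22.4% of Cd3-detected and 20.3% and 32.5% of Cd3-negative cells of Gli1-/- JAK2V617F and Gli1-/- JAK2WT marrow, and Xist 0% of Cd3-negative cells of Gli1-/- JAK2V617F marrow. Thinned GFP shares were 0% in Gli1-/- JAK2V617F, WT JAK2V617F and Gli1-/- JAK2WT marrow. With at least 50 Mpo UMIs, precursors past the Ccl5 or Gzma limit were 1.19% in Gli1-/- JAK2V617F and 1.20% in WT JAK2WT marrow. The cause of these shifts was not tested, apart from fewer UMIs or genes where a setting removes them. Cd3-negative cells of WT JAK2V617F marrow had 69959 UMIs in all, so 3 counts there equal 42.9 CPM, and genes under that level were not detectable.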

Other observations

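For JAK2V617F over JAK2WT in the Cd3-negative cells of Gli1 knockout marrow, 0.959% of all genes past the filter were at least 2-fold higher and 0.902% lower. Of 12 class I antigen presentation genes none was past 2-fold (median log2 ratio -0.21), and of 14 glycolysis genes none was (0.12). Of 22 interferon response genes 5 were higher and 1 lower (0.29), and of the 11 past the filter 3 were higher and 1 lower. In Cd3-detected cells the same contrast had 11.2% of genes higher and 5.04% lower. Of 10 glycolysis genes past the filter 3 were higher and none lower, or 1 higher without mixed profiles, and of 11 interferon response genes 4 were higher and 1 lower.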
